A study of Caenorhabditis elegans with 2 samples.

Results

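The genes are 10 members of the retinoblastoma pathway of Caenorhabditis elegans, namely lin-35, efl-1, dpl-1, lin-9, lin-37, lin-52, lin-54, lin-15B, lin-13 and hpl-2, out of 19973 annotated nuclear protein-coding genes. They were chosen by name for their place in the DREAM complex and the synMuv B class, and with the called regions at lin-35 and its partners already known. The values were recorded by chromatin immunoprecipitation followed by sequencing (ChIP-seq) of F13H6.1, the product of bcl-11, in whole late embryos. The worms were strain OP471, which is unc-119(tm4063) III and carries the transgene wgIs471 with a GFP-FLAG tag at the C terminus of the protein. Embryos were hermaphrodite and taken 5 hours after egg bleaching, with an antibody against GFP for the pulldown. The series has 1 group of 2 biological replicates, so no conditions were compared and no test was made.

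LIN-35 is the worm protein of the retinoblastoma family. It joins the E2F and DP partners EFL-1 and DPL-1 and the MuvB subunits LIN-9, LIN-37, LIN-52 and LIN-54 in the DREAM complex, which represses cell cycle and germline genes. LIN-54 is a sequence-specific DNA-binding subunit of the complex, and the known target word of LIN-54 is the cell cycle genes homology region (CHR), TTTGAA. The synMuv B genes act redundantly with the synMuv A genes to keep vulval cell fates in check. Among them LIN-15B is a THAP-domain protein, LIN-13 a zinc finger protein and HPL-2 a heterochromatin protein of the HP1 family.

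A region was counted for a gene when its summit lay between 2000 bp upstream of the gene and the gene's end. The ce11 lists hold 21824 permissively called regions from the pooled reads, 19517 from replicate 1 and 21972 from replicate 2. The authors' list labelled optimal was thresholded by irreproducible discovery rate (IDR), a measure of rank agreement between lists. It has 1065 regions, called sites here. The label does not say which lists were compared for it. The sites are exactly the 1065 pooled regions of highest signal, and a site's own replicate ranks can lie far apart. Signal is the authors' peak caller's value for a region, its scale is not given in the sources used here, and ranks by signal run from 1, the strongest. Because the lists differ in length, a rank is also given as its percentage from the top. The lists do not hold the sequencing depth. No control library was used here, and binding of the tagged protein at a region was not tested.

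The DNA under 6 of the 14 pooled summits at these genes is printed as examples, and not as a sample of them, since it takes in all 4 windows with TTTGAA and 2 of the 10 without it. Each line gives 101 bases of WBcel235 (ce11), read from the RefSeq genome on the plus strand with the summit in the middle. Capitals mark TTTGAA or the E2F word TTCCCGC, either one on either strand (TTCAAA is the reverse complement of TTTGAA). The lin-54 and lin-13 sequences lie under sites, and the lin-15B, lin-9 and efl-1 sequences under the region nearest each gene's start, which did not pass the threshold.
lin-54, rank 794, chrIV:13240658-13240758: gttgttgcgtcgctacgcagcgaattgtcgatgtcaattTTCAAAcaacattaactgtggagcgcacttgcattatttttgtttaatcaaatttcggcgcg
lin-13, rank 691, chrIII:7710262-7710362: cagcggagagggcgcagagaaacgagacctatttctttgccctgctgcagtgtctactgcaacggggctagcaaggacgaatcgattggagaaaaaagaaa
lin-13, rank 1025, chrIII:7711029-7711129: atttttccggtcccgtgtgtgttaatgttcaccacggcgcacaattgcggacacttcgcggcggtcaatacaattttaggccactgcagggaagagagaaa
lin-15B, rank 1457, chrX:15725746-15725846: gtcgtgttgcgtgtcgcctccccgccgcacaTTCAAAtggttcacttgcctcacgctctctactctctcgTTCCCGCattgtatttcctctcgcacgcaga
lin-9, rank 2242, chrIII:8904210-8904310: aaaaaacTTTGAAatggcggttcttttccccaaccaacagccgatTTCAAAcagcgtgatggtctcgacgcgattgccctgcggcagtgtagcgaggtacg
efl-1, rank 3020, chrV:16965739-16965839: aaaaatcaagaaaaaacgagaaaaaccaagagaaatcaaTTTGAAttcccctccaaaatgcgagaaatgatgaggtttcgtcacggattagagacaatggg
The windows at lin-54, lin-15B and efl-1 hold TTTGAA at 1 place and the window at lin-9 holds it at 2. The lin-15B window also holds TTCCCGC, which does not overlap the TTTGAA. Neither lin-13 window holds any of the words sought, nor do the windows at lin-35 and lin-52, which are not printed.

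Sites stood at lin-35, the retinoblastoma gene, at lin-54, the DNA-binding MuvB subunit, and at lin-13, which had a pair of them. In all, 3 of the 10 genes held a site, against 1154 of the 19973 coding genes (5.78%). Only 1 of the 4 sites, at lin-13, had the pathway gene's start as its nearest coding start. With each site given only to its nearest coding start, 1 of the 10 genes held one, against 3.85% of coding genes. The genes efl-1, lin-9, lin-52 and lin-15B held only sub-threshold regions, so that 7 of the 10 had any pooled region, against 55.8% of coding genes. The median rank of the strongest region was 1457 over these 7 and 7359.5 over all coding genes with one. The E2F partner gene dpl-1, the MuvB gene lin-37 and hpl-2 had no region in the pooled list or in either replicate list. That was 3 of 10, against 28.7% of coding genes. Since the genes were named with these lists known, nothing is read from the difference of the shares. The windows of the 10 genes were also longer, with a median of 5615.5 bp against 4027 bp for all coding genes, and the part of length in the counts was not tested.

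**Figure D1:**
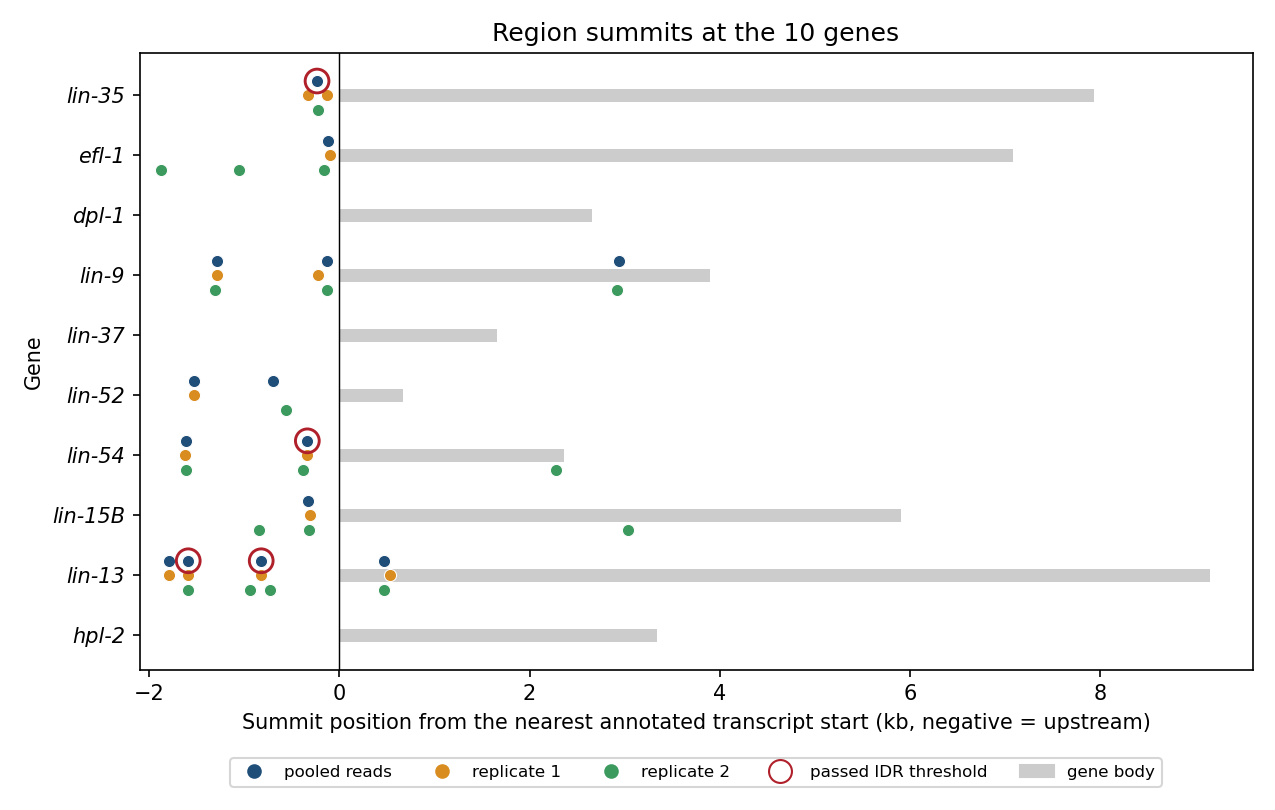
Summit positions at the 10 genes in kb from the nearest annotated transcript start of the gene, by list, with the gene body in grey. The 4 ringed summits, at lin-35, lin-54 and lin-13, passed the IDR threshold, and all 4 lie upstream of the start; dpl-1, lin-37 and hpl-2 have no summit in any list.

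The lists held 14 pooled regions, 4 of them sites, 13 regions of replicate 1 and 18 of replicate 2 at the 10 genes. Of the 14 pooled summits, 12 lay upstream of the gene's start and the same number between genes. The other 2 lay in introns, at lin-9 and lin-13. In 6 of the 14 the nearest coding start was that of the pathway gene, so most summits lay nearer to a neighbour.

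lin-35 had the strongest region of the 10 genes, on chromosome I from 5807263 to 5807584. Its pooled signal was 322, rank 32 of 21824 (top 0.147%). In all 33 coding genes, 0.165%, lin-35 included, had a pooled region of this rank or stronger. In replicate 1 the overlapping region ranked 42 (top 0.215%, signal 138.3) and in replicate 2 it ranked 19 (top 0.0865%, signal 191.8). The region was thus far up both lists. Its summit lay in the 417 bp between lin-35 and vps-51, a gene for a vesicle-tethering factor that is read away from lin-35. The summit was 234 bp upstream of the lin-35 start and 184 bp from the vps-51 start, so position alone does not assign the region to either gene.

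The replicates drew this region differently. Replicate 1 listed a second region at lin-35, from 5807354 to 5807809, ranked 255 (top 1.31%, signal 74.7). Its summit lay 127 bp upstream of the lin-35 start and that of the stronger region 326 bp upstream. Replicate 2 listed 1 region with its summit at 224 bp. The pooled region was 322 bp wide, while the other 13 pooled regions at the pathway genes had the width of 456 bp that 83.9% of all sites share.

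lin-54 had a site on chromosome IV from 13240480 to 13240935, with a pooled signal of 94.45 and rank 794 (top 3.64%). It ranked 930 in replicate 1 (top 4.77%, signal 43.76) and 729 in replicate 2 (top 3.32%, signal 52.29). Both replicate ranks were within the first 1065 of their lists. The summit stood 336 bp upstream of the lin-54 start but only 57 bp from that of the divergent rpl-12, which encodes a protein of the large ribosomal subunit. A gap of 392 bp separates these genes. A weaker pooled region, from 13239202 to 13239657 (rank 4448, signal 43.78), fell in the lin-54 window with its summit 1614 bp upstream. It lay 16 bp from a start of tag-115, 353 bp from the snoRNA gene JC8.15 and 450 bp from rpl-12. Replicate 2 alone listed a further region in the 3′ UTR of lin-54, at rank 16421, 347 bp from a start of JC8.4 and 996 bp from one of cox-11.

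lin-13 had 2 sites on chromosome III, both in the 2817 bp between its start and C03B8.3. The stronger, from 7710084 to 7710539, had a pooled signal of 99.88 and rank 691 (top 3.17%), with its summit 821 bp upstream of lin-13. Its ranks were uneven, 1864 in replicate 1 (top 9.55%, signal 32.94) and 374 in replicate 2 (top 1.7%, signal 68.39). The other site, from 7710851 to 7711306, had a signal of 83.77 and rank 1025 (top 4.7%), near the lowest site signal of 82.13. It ranked 1239 in replicate 1 and 926 in replicate 2. Its summit was 1588 bp upstream of lin-13 and 1230 bp from the start of C03B8.3. Neither lin-13 site was therefore among the 1065 highest regions of replicate 1, and with the highest 1065 of replicate 1 in place of the sites lin-13 was not counted.

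A pooled region in an intron of lin-13, 467 bp inside the gene (7708796 to 7709251), ranked 3081, with 8031 in replicate 1 and 1937 in replicate 2. The last pooled region there, at rank 17169 (signal 25.12), had its summit 200 bp beyond that of the second site in the same direction. Replicate 1 had a region with the same offset, 1789 bp upstream at rank 5389. Replicate 2 listed none there but had an extra one 937 bp upstream at rank 8974.

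Among the sub-threshold genes lin-15B came nearest to the threshold. Its pooled region lay on X from 15725568 to 15726023, with signal 71.46 and rank 1457 (top 6.68%), between genes and 327 bp upstream of the start. It ranked 1240 in replicate 1 (top 6.35%) and 3394 in replicate 2 (top 15.4%). No other coding gene started within 1000 bp of the summit. The replicate summits lay 24 and 5 bp from the pooled one. The ce10 lists, taken alone, had 1362 sites, and lin-15B would also fall outside the first 1362 pooled ce11 regions. Replicate 2 had 2 further weak regions, one 845 bp upstream and one in a coding exon, at ranks 19354 and 19398.

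lin-9, for a MuvB subunit, had 3 pooled regions on chromosome III. The strongest, from 8904032 to 8904487, ranked 2242 (top 10.3%, signal 58.49) with its summit 129 bp upstream of the start. It ranked 5486 in replicate 1 (top 28.1%) and 1318 in replicate 2 (top 6%). The intronic region 2938 bp inside the gene ranked 3786 and was matched in replicate 2, at 2233, with no overlapping region in replicate 1. The third, ranked 5162, lay 171 bp from the noncoding ZK637.19 and 198 bp from the start of unc-32, a V-ATPase subunit gene that is read the other way.

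efl-1, the E2F gene, had 1 pooled region on chromosome V from 16965561 to 16966016, ranked 3020 (top 13.8%, signal 51.34). Its summit was 114 bp upstream of the start, the shortest distance among the 14 pooled regions. It ranked 2010 in replicate 1 (top 10.3%) and 7538 in replicate 2 (top 34.3%). Replicate 2 listed 2 more in the window, both nearer to the F-box gene fbxa-90, at ranks 6502 and 20872.

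lin-52, a MuvB subunit gene of 668 bp and the shortest of the 10, had 2 pooled regions, ranked 6092 and 6708. The first had its summit 695 bp upstream of lin-52 and 13 bp from the start of ZK632.9, a gene on the same strand that ends 126 bp before lin-52. It overlapped a region of replicate 2, at rank 2667, and none of replicate 1. The second, 845 bp from ZK632.9 and 901 bp from ZK632.10, was matched in replicate 1, at rank 7388, and not in replicate 2. No region of lin-52 was thus seen in both replicates.

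**Figure D2:**
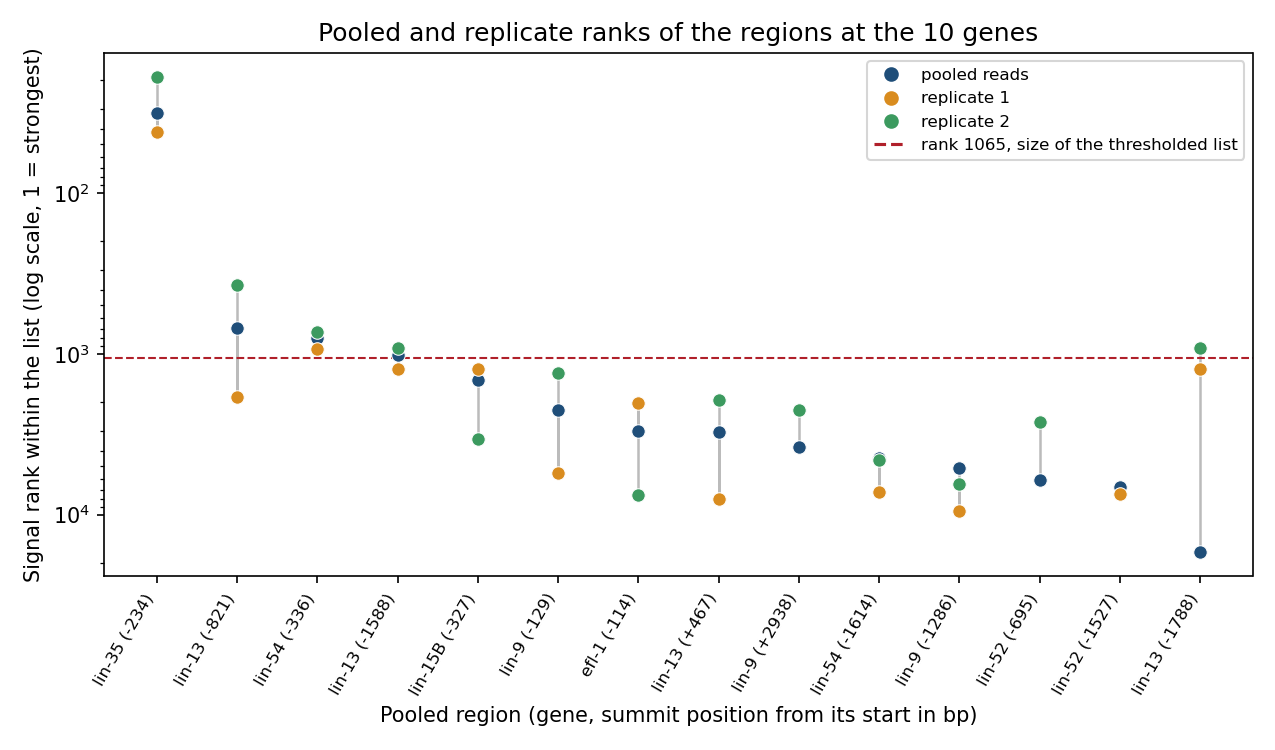
Signal rank (log scale, 1 at the top) of each of the 14 pooled regions at the 10 genes, with the strongest overlapping region of replicate 1 and of replicate 2. lin-35 leads at ranks 32, 42 and 19, lin-54 is the other gene with a region above rank 1065 in all 3 lists, and for the last region (lin-13, 1788 bp upstream) the replicate points belong to the neighbouring site.

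By their strongest pooled region the genes ran lin-35, lin-13, lin-54, lin-15B, lin-9, efl-1 and lin-52. lin-35 led in both replicates, since the next best ranks were 930 in replicate 1 and 374 in replicate 2. At the strongest pooled regions the replicate ranks of lin-13, 1864 and 374, enclosed those of lin-54, 930 and 729. These neighbours in the order are thus not separated. The second lin-13 site ranked better in replicate 1, at 1239, but still behind 930. Below lin-35 the order differed between the replicates at several places. lin-9 was behind lin-15B and efl-1 in replicate 1, at 5486 against 1240 and 2010, and ahead of both in replicate 2, at 1318 against 3394 and 7538 for the regions nearest the starts. lin-52 was last in replicate 1, at 7388, but at 2667 came before lin-15B and efl-1 in replicate 2. These lin-52 ranks belong to different regions, 7388 to that with its pooled summit 1527 bp upstream and 2667 to that at 695 bp. They therefore do not compare the same region between replicates. Of the 4 sites, those of lin-35 and lin-54 were among the 1065 highest of both replicates. This put 2 of the 10 genes, and 817 coding genes (4.09%), in that class. Of the 14 pooled regions 11 overlapped a region in each replicate. They include the lin-13 region at rank 17169, for which the strongest overlapping regions were those of the neighbouring site. Replicate 2 listed no region of its own there.

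**Figure D3:**
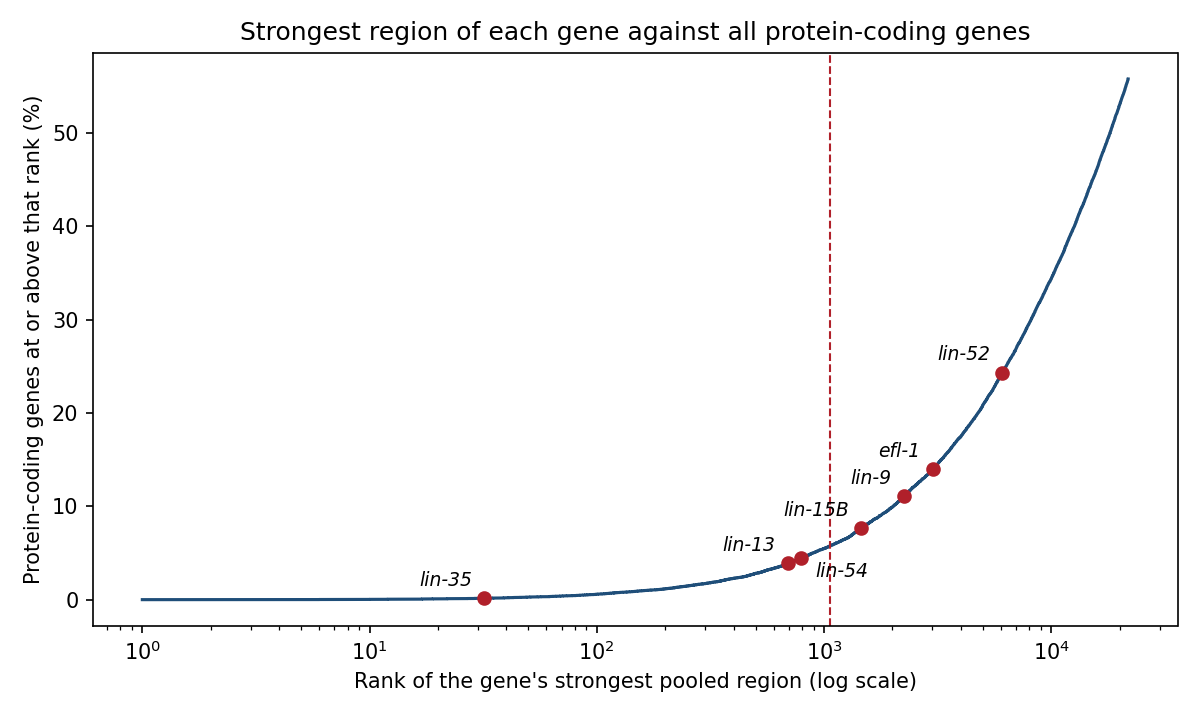
Percentage of all 19973 coding genes whose strongest pooled region is at or above a given rank (log scale), with the 7 pathway genes that have a region in red and rank 1065 dashed. lin-35 sits at 0.165%, lin-13 at 3.89%, lin-54 at 4.5%, lin-15B at 7.67%, lin-9 at 11.1%, efl-1 at 14% and lin-52 at 24.3%.

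The 3 genes without a region differed in what lay around them. dpl-1 lies wholly inside the oppositely read T23G7.2. Its nearest pooled region had its summit 7365 bp downstream of the dpl-1 start, near pir-1 and sec-5, at rank 10375. That region overlapped a region of replicate 2, at rank 7243, and none of replicate 1. lin-37 starts 60 bp after ZK418.5, on the same strand. The nearest pooled region (rank 5081, signal 41.5) was 3430 bp upstream in a coding exon of ZK418.13. Its ranks were uneven, 9265 in replicate 1 and 2456 in replicate 2. hpl-2 starts 93 bp after rnf-113, also on the same strand. The summit of the nearest region, a strong site between tasp-1 and K01G5.10 (10759082 to 10759398, signal 396, rank 17), stood 3723 bp upstream of hpl-2, outside the window. It ranked 22 in replicate 1 and 14 in replicate 2. The pooled list goes down to a signal of 22.22, so weaker enrichment at these 3 genes would not be seen in it.

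The words of the pathway's own factors were then sought within 50 bp of each summit, on both strands. TTTGAA lay at 4 of the 14 pooled regions, at lin-54, lin-15B, lin-9 and efl-1, and at 1 of the 4 sites, against 13.1% of all sites and 18.6% of the other pooled regions. Of the E2F words TTCCCGC lay at lin-15B alone, and at 2.82% of all sites and 1.59% of the rest. TTCGCGC was at none of the 14, and at 1.5% of all sites and 1.37% of the rest. TTGGCGC was at none, and at 2.44% of all sites and 1.46% of the rest. The last E2F word sought, TTGCCGC, was at none, and at 2.72% of all sites and 1.55% of the rest. TGACCA, the word bound by mammalian BCL11A, was at none of the 14, against 3.76% of sites and 3.7% of the rest. GC content of the window was 31.7% at lin-35, 41.6% at the lin-54 site and 51.5% and 50.5% at those of lin-13, beside a median of 50.5% over all sites. A word is a description of the DNA and says nothing of which factor was there.

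Other genes of the pathway, and genes of classes related to it such as synMuv A and vulval Ras genes, were counted in the same window. Of 51 genes in 7 lists, 9 held a site (17.6%, against 5.78% of all coding genes) and 39 a pooled region (against 55.8%). These lists too were drawn up with results of these data known, so nothing is read from the shares. The median rank of the strongest region ran from 207 in the list of suppressors to 18104 in that of germline genes, beside 7359.5 over all coding genes. Among 13 other synMuv B and DREAM-linked genes (9 with a pooled region, median rank 3129) only lin-61, for an MBT-repeat protein, held a site. That site (I, 7251373 to 7251828, signal 111.5, rank 541) was 319 bp upstream of lin-61 and 340 bp from bub-1. Below the threshold, the histone deacetylase gene hda-1 reached rank 1353, mep-1 rank 2168 and the histone-binding DREAM subunit gene lin-53 rank 2238. met-2, lin-65, let-418 and hpl-1 had no pooled region. All 4 synMuv A genes had pooled regions, at a median rank of 10149.5, and none held a site, with lin-38 highest at rank 1930 and lin-15A, which overlaps the end of lin-15B, at 17933.

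The Tip60-like synMuv C genes held sites at mys-1, the histone acetyltransferase gene, and at epc-1, 2 of 4. The mys-1 site (V, 7084691 to 7085146, signal 89.62, rank 889) was 257 bp upstream, 690 bp from the lincRNA gene linc-117, and ranked 730 and 1383 in replicates 1 and 2. The epc-1 site (III, 12608532 to 12608987, signal 106.2, rank 603) was 174 bp upstream, 164 bp from the noncoding Y111B2A.34 and 529 bp from Y111B2A.12, and ranked 780 and 582. All 4 genes of this list had pooled regions, at a median rank of 1605. Among 5 genes (3 with a pooled region) whose loss suppresses synMuv B phenotypes, sites lay at mrg-1, for an MRG15-like chromodomain protein, and at zfp-1, for an AF10-like zinc finger protein. The mrg-1 site (III, 12874675 to 12875130, signal 163.8, rank 207) was 247 bp upstream of mrg-1 and 128 bp from spcs-2, and mes-4 had no pooled region.

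Of 9 regulators of the G1 to S transition, cye-1 and cki-1 held sites, and 8 had pooled regions at a median rank of 2781. The cki-1 site, upstream of this cyclin-dependent kinase inhibitor gene (II, 7810806 to 7811261, signal 88.1, rank 924), had its summit 206 bp from the start and ranked 1029 and 1031 in the replicates. The cyclin E gene cye-1 has a site in an intron (I, 6781587 to 6782042, signal 286.5, rank 40) whose summit lies 12 bp from the start of a tRNA gene. Cyclin D (cyd-1) reached rank 1346 and its kinase gene cdk-4 had no pooled region. Of 8 germline genes repressed by the synMuv B class none held a site and 5 had a pooled region, and pgl-1 was highest at rank 3578. Of 8 vulval Ras pathway genes, let-60 (Ras, rank 574) and mpk-1 (the ERK kinase, rank 718) held a site, and 6 had pooled regions at a median rank of 3002. Their summits lay 1354 and 4126 bp from the nearest start of the gene, and that of let-60 lay 2 bp from the noncoding ZK792.10. lin-3, the EGF gene that synMuv proteins repress, and let-23 had no pooled region.

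**Figure D4:**
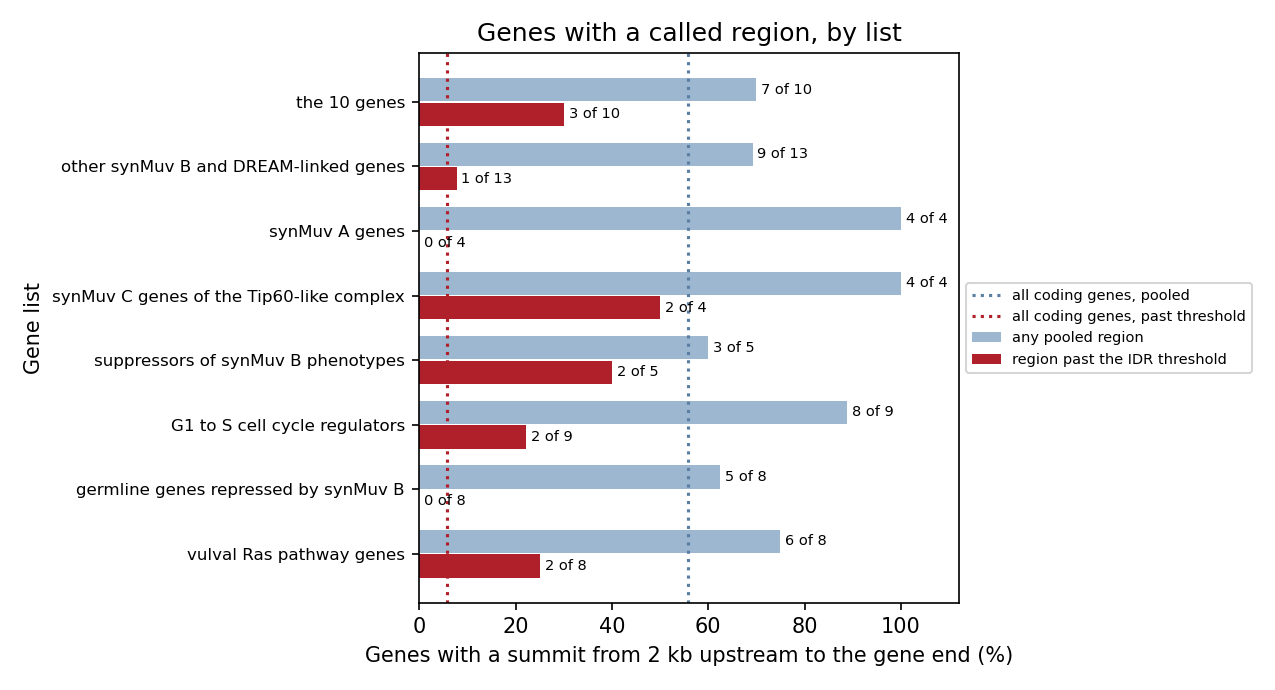
Percentage of genes in each list with a summit from 2 kb upstream to the gene end, for any pooled region (blue) and for sites (red), with the counts beside the bars and the shares of all coding genes as dotted lines. The 10 genes show 7 with a pooled region and 3 with a site; the synMuv A and germline lists show none with a site.

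The regions most like that of lin-35 in rank over the 3 lists, by Euclidean distance of log10 ranks among 1152 genes, were those of sre-23, rpl-3 and, level with each other, chaf-2 and Y71G12B.30. The gene vps-51 shares the lin-35 region and was left out. The sre-23 region ranked 28, 32 and 25 in the pooled list and replicates 1 and 2 (distance 0.178). The rpl-3 region ranked 27, 29 and 24 (0.204), and the region shared by chaf-2 and Y71G12B.30 ranked 33, 37 and 32 (0.233).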

How the data were processed

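Per the labels, the authors deposited 1 permissive list a replicate, 1 for both replicates pooled and an IDR-thresholded one. The name of the aligner, that of the caller and the IDR cutoff were not given in the sources used here. In the deposited lists a region carries a signal from the authors' caller, used only to rank regions within a list. The ce11 lists were used for every position, with genes from the Ensembl release 115 annotation of WBcel235. Coordinates are 1-based.

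A replicate region was matched to a pooled one by at least 1 bp of overlap, the strongest if several. The 10 genes and the 7 lists were chosen with earlier results of these data known. All 10 genes are named, as are the list genes with a site, the neighbours with a start within 1000 bp and the 3 nearest genes in rank to the member of highest rank; a few list genes without a site, hda-1 and lin-53 among them, were named after their values were seen. Nothing was tested, since there is 1 group. The window search, run on summits placed in 200 of 19973 gene windows, found all 200. Python 3.11.15, numpy 2.4.6, pandas 2.3.3, scipy 1.17.1 and matplotlib 3.10.9 were used.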

Additional observations from a re-analysis of the deposited data

How the results depend on the processing

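The genes with a site stayed at 3 with 1000 bp upstream, with promoter windows, with any overlap and with the 1362 highest pooled regions. Those were lin-35, lin-54 and lin-13 each time. Their sites fell from 4 to 3 with 1000 bp upstream and with promoter windows. The sites stayed at 4 with any overlap and with the 1362 highest. With 500 bp upstream lin-13 left, so 2 genes and 2 sites were counted. With the 532 strongest sites only lin-35 was left (1 gene, 1 site). When each site went only to its nearest coding start, an alternative chosen after seeing the data, as was the 1362, only lin-13 was left (1 gene, 1 site). Leaving out a replicate gave 2 to 3 genes and 3 to 4 regions, with lin-13 lost when replicate 2 was left out, and 5.65 to 5.68% of coding genes. The 3 regions without replicate 2 were those at lin-35, split in replicate 1 and ranked 42 and 255, and that at lin-54, ranked 930. The share of coding genes with a site, 5.78%, became 4.65% with 1000 bp, 3.91% with 500 bp and with promoter windows, 6.35% with any overlap, 2.98% with the 532 strongest, 7.16% with 1362, 3.85% with nearest starts and 10.4% among genes with a pooled region. The count of genes with a pooled region was 6 to 7, and 2 sites were among the highest of both replicates in every alternative run. With 100 bp on each side of the summit, also chosen after seeing the data, 2 of the 4 sites held TTTGAA instead of 1. Depth is unknown, so no interval is given for a rank.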

Other observations

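zfp-1, for an AF10-like chromatin protein, held 5 sites, all in its introns on chromosome III, a count singled out after its values were seen. They ranked 38 (8801880 to 8802179, signal 298.7), 175 (8795648 to 8796103, signal 173.5), 586, 990 and 1062. The first 3 ranked 39, 313 and 488 in replicate 1 and 42, 105 and 568 in replicate 2. The summit of the site at rank 586 lay 416 bp from a start of F54F2.6, nearer than any zfp-1 start, at 752 bp. The site at rank 990 was uneven, at 7163 in replicate 1 and 474 in replicate 2. The lowest overlaps the strongest region of the gene, from which its replicate 1 rank of 39 comes.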
